A study of Mus musculus with 12 samples.

Results

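The complement system is a cascade of plasma proteins that marks particles and cells for uptake and calls in leukocytes. The classical pathway starts when C1q, a bundle of A, B and C chains, binds a target and activates the proteases C1r and C1s. The alternative pathway amplifies deposition of C3, the protein on which all routes of activation meet, through a convertase that contains factor B (Cfb) and is stabilised by properdin (Cfp). Macrophages are a known tissue source of C1q, and they also make properdin and, when activated, C3.

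The complement component genes described here are the 6 genes C1qa, C1qb, C1qc, C3, Cfb and Cfp, which were found by Ensembl identifier among the 48795 genes listed in the count data. The RNA came from bone marrow-derived macrophages (BMDMs), which are bone marrow cells of male mice of 7 to 11 weeks grown into macrophages with the growth factor M-CSF. The 12 libraries formed 6 groups of 2, WT cells (strain label C57BL/6, given as C57BL/6NJ in the study's methods) and Acod1-/- cells (C57BL/6NJ-Acod1em1(IMPC)J/J), each given vehicle, PM at 20 µg/cm2 for 24 hours, or the same PM after 2 hours with 0.25 mM OI. PM is urban particulate matter, OI is 4-octyl itaconate, a cell-permeable form of itaconate, and Acod1 encodes the enzyme that makes itaconate. The cells were exposed in culture and no group received OI without PM, so the OI comparisons are between cells that all received PM. No label says which animals or cultures the replicates came from, and p-values therefore measure the spread between these libraries, which may be technical.

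The libraries held between 33616577 and 36817898 counts. All 8 macrophage markers checked, among them Adgre1, Csf1r and Cd68, passed the filter on low counts and summed to between 14278 and 27338 normalized CPM per library, the count scaled to library size after TMM normalization. Of 9 genes of neutrophils and myeloid precursors, only S100a8 and S100a9 were tested. Their list summed to between 5.45 and 6.37 normalized CPM with vehicle, between 12.3 and 18.6 with PM and between 29.4 and 61.0 with OI and PM. The defining neutrophil gene Ly6g was at 0 in all libraries but those given OI and PM in the Acod1-/- cells. T cell, NK cell and erythroid genes summed to at most 0.0338 normalized CPM in any library. Acod1 rose with PM from between 1.84 and 2.49 to between 170 and 181 normalized CPM in WT cells, and from between 1.22 and 1.26 to between 94.1 and 108 in Acod1-/- cells. Its log2 difference, Acod1-/- minus WT, was -0.81 with vehicle, -0.80 with PM and -0.81 with OI and PM (adjusted p = 0.492, 0.0807 and 0.0509). These did not pass the test, though 2, 5 and 6 of 13 alternatives called it lower, DESeq2 among them with PM (adjusted p = 0.00952) and with OI and PM (adjusted p = 0.00615). Counts over the whole gene do not show whether a transcript lacks a deleted stretch. The WT replicates given PM, or OI and PM, differed from each other in a way that followed the exonic length of the gene (Spearman's rho across genes 0.60 and 0.61).

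The test took in genes that passed 1.5 CPM in 2 or more libraries. This kept 11228 genes and 5 of the 6 members. Cfb had 45 counts over all 12 libraries and was not tested. Below, a gene rose or fell when its adjusted p was 0.05 or less, and log2 fold changes are given with their standard error (SE).

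The C1q chains lie side by side on the minus strand of chromosome 4 (GRCm38), within chr4:136880129-136898803, a stretch of 18675 bases in which no other gene is annotated. C1qb (ENSMUSG00000036905.8) is at chr4:136880129-136886187, C1qc (ENSMUSG00000036896.5) at chr4:136889804-136893065 and C1qa (ENSMUSG00000036887.5) at chr4:136895917-136898803. C3 (ENSMUSG00000024164.15) is at chr17:57203970-57228136, Cfp (ENSMUSG00000001128.7) at chrX:20925454-20931555 and Cfb (ENSMUSG00000090231.10) at chr17:34856374-34862518, all on the minus strand. Exons of the 5 tested members overlap those of no other gene. Only 579 of the 2825 exonic bases of Cfb, or 20.5%, are free of overlap, because the readthrough gene Gm20547 covers the rest, and reads there can be lost when they fit both genes.

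The 250 bases before the start site were read from RefSeq (GRCm38.p6) for the members that had an entry, C1qb, C1qc, C3 and Cfp. They are shown for C1qb, as a C1q chain that fell with OI, for C3, which rose most with PM, and for Cfp, which moved less. The window of C1qc reaches into the gene as GENCODE draws it and is described without its bases. Capitals mark matches, on either strand, to GGG, any 5 bases and CC (kappa B), and to the letters GAGGAA (the core of PU.1 and other ETS factors), TTGCNNAA (C/EBP) and TGACNNNGC (the antioxidant response element, ARE). Overlapping matches run together. The sequences read 5′ to 3′ on the strand of the gene and are from chr4:136886201-136886450 for C1qb, chr17:57228137-57228386 for C3 and chrX:20931556-20931805 for Cfp.
C1qb: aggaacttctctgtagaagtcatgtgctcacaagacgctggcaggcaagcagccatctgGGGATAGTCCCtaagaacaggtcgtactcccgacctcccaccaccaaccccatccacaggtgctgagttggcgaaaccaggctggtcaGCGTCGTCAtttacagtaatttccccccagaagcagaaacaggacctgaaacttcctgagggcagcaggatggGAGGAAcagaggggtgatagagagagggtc
C3: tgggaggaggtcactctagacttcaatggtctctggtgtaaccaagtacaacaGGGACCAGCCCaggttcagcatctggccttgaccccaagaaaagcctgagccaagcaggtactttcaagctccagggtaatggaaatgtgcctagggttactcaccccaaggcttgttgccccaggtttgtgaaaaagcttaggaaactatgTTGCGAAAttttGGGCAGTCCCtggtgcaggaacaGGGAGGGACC
Cfp: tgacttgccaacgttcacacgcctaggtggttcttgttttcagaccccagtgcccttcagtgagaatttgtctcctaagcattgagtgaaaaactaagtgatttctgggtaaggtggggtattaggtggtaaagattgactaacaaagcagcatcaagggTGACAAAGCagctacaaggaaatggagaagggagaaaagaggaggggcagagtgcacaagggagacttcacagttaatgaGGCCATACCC

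All 4 windows, C1qc included, held kappa B letters, which 45.8% of the 32851 promoter windows of the same length hold. The 2 C1q windows both held the ETS core, starting at -30 in C1qb and -193 in C1qc counted from the start site, and 23.3% of all windows hold it. C3 alone among the 4 held the C/EBP letters, at -45 and next to a kappa B match that starts at -33, and 9.56% of all windows hold them. C1qb at -103 and Cfp at -90 held the ARE letters, present in 10.2% of all windows. No match was found in the 4 windows to GAAA, any 2 bases and GAAA (the interferon-stimulated response element), TTCNNNGAA (GAS) or TGANTCA (AP-1). These matches are descriptions of letters and were not tested as sites.

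With vehicle, WT macrophages held the C1q chains in abundance and almost no C3. Per kilobase of exon, the levels were 806 normalized CPM for C1qb, 316 for C1qc, 155 for Cfp, 153 for C1qa and 0.689 for C3 (means of 2 libraries). C1qb was thus 5.28 and 5.27 times C1qa per kilobase in the 2 libraries. The 2 vehicle libraries of each genotype lay close together for every tested member.

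**Figure D1:**
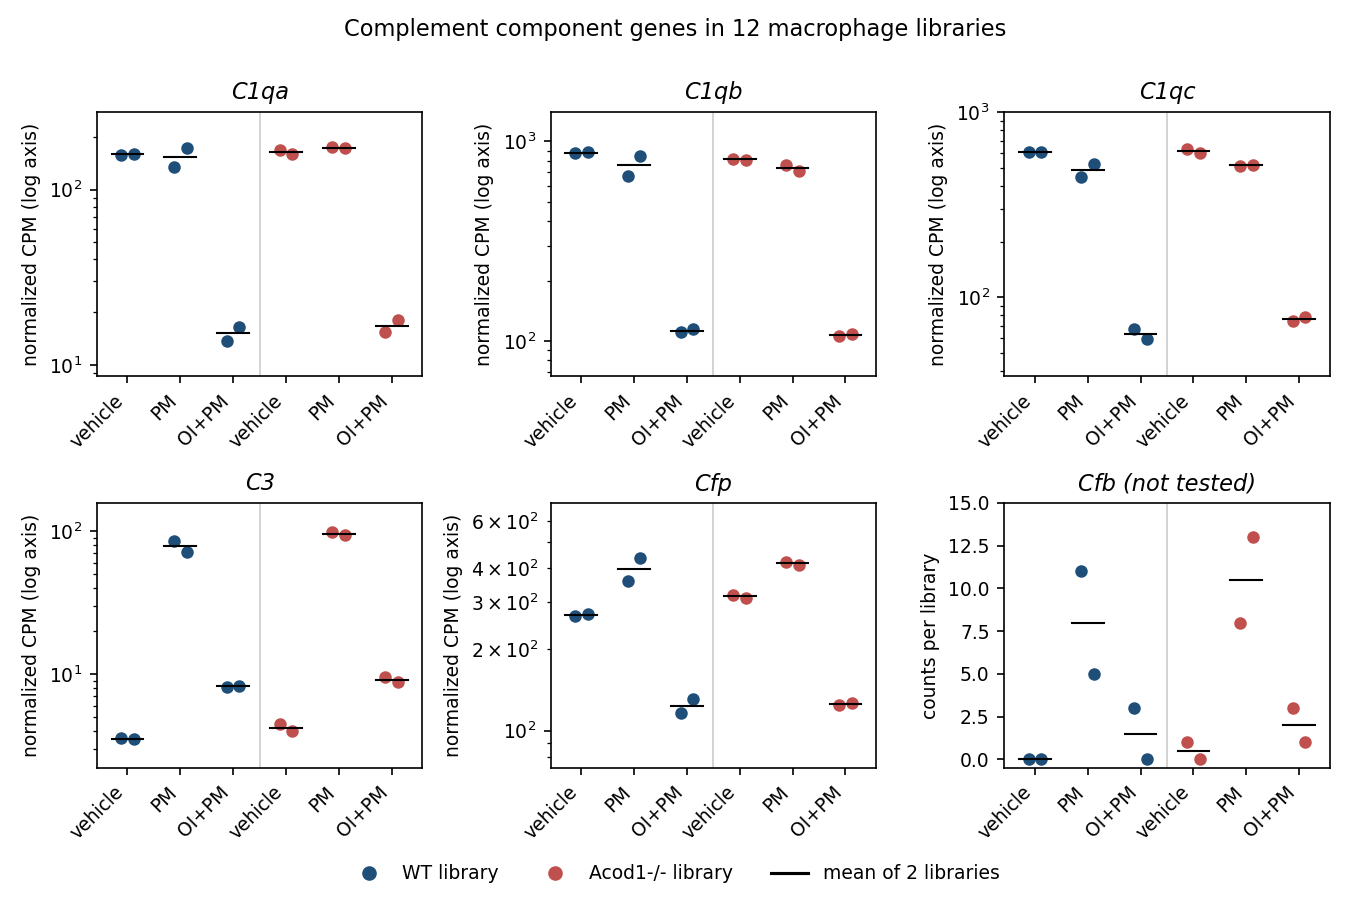
Normalized CPM (log axis) of the 5 tested complement component genes and counts of Cfb (linear axis) in each library, by treatment, with WT libraries in blue, Acod1-/- libraries in red and a bar at the mean of 2 libraries. The C1q chains sit high with vehicle and PM and low with OI and PM, and C3 is high with PM only, in both genotypes.

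PM was compared with vehicle to show which complement genes the particles changed. C3 rose about 22-fold in both genotypes, Cfp rose by less than 1.5-fold, C1qc fell slightly, and C1qa and C1qb did not pass the test. Of the 5 tested members, 3 were called in each genotype, C3 and Cfp as higher and C1qc as lower, where 24.8% of all genes tested were called in WT cells and 23.9% in Acod1-/- cells. The median log2 fold change of the 5 tested members was -0.05 in WT cells and 0.07 in Acod1-/- cells, beside 0.01 and -0.00024 for all genes. Of the 8 macrophage markers, 5 rose with PM in WT and 4 in Acod1-/- cells, among them Lyz2 by 0.96 and 1.10 and Csf1r by 0.59 and 0.68 on the log2 scale, and S100a8 and S100a9 rose in both genotypes. Their part in the changes of the members was not tested.

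C3 was at 3.55 and 3.54 normalized CPM in the WT vehicle libraries and at 85.6 and 71.1 in those given PM. The Acod1-/- libraries held 4.46 and 4.00 with vehicle and 98.3 and 93.7 with PM. Every PM library was above every vehicle library, with no overlap. The increase on the log2 scale was 4.46 (SE 0.11, adjusted p = 3.96e-08) in WT cells and 4.50 (SE 0.11, adjusted p = 3.00e-08) in Acod1-/- cells. Only 19 and 20 of the 11228 genes had larger increases, respectively.

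Cfp, the only known positive regulator of the alternative pathway convertase, was at 266 and 271 normalized CPM in the WT vehicle libraries and at 360 and 436 with PM. The Acod1-/- values were 319 and 311 with vehicle and 421 and 412 with PM. The groups did not overlap within either genotype. The increase on the log2 scale was 0.57 (SE 0.09, adjusted p = 0.00142) in WT cells and 0.40 (SE 0.09, adjusted p = 0.00879) in Acod1-/- cells. The call in Acod1-/- cells was lost without PM replicate 1 and without either vehicle library (adjusted p between 0.0526 and 0.0734), while the log2 fold change stayed between 0.39 and 0.42.

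Cfb, the protease of the alternative pathway convertase, showed 0 and 0 counts in the WT vehicle libraries, 11 and 5 with PM, and 3 and 0 with OI and PM. The Acod1-/- counts were 1 and 0, then 8 and 13, then 3 and 1. Each PM library held more counts than any library of the other treatments. Summed over a group, the 16 PM counts of WT cells were 5.87-fold above a floor of 3 counts set for vehicle, after scaling. This value takes the PM counts as exact and has no interval. In Acod1-/- cells PM was 22.2-fold higher than vehicle (exact 95% interval 3.56 to 917, for counting error only). With a filter of 10 counts in total Cfb was called higher after PM in both genotypes (adjusted p = 0.0235 and 0.0266). Its levels stayed at or under 0.374 normalized CPM in every library, so it rests on few reads.

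The C1q chains moved little with PM. C1qc was at 609 and 612 normalized CPM in the WT vehicle libraries and at 448 and 526 with PM, and it was at 630 and 601 and at 510 and 521 in the same treatments of Acod1-/- cells. Its log2 fold changes were -0.33 (SE 0.08, adjusted p = 0.0181) in WT and -0.26 (SE 0.08, adjusted p = 0.0477) in Acod1-/- cells. The groups did not overlap, but the call was lost in WT cells without PM replicate 1 or either vehicle library (log2 fold changes between -0.33 and -0.22). In Acod1-/- cells it was lost without any 1 of the 4 libraries (between -0.29 and -0.22). There it was also lost with a filter of 10 counts in total (adjusted p = 0.0712) and with the replicate block (adjusted p = 0.0537).

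C1qb was at 871 and 883 normalized CPM in the WT vehicle libraries and at 671 and 847 with PM. Its log2 fold change did not pass the test, at -0.21 (SE 0.09, adjusted p = 0.120) in WT cells and -0.15 (SE 0.09, adjusted p = 0.267) in Acod1-/- cells, where the values were 817 and 809 with vehicle and 760 and 708 with PM. C1qa was at 158 and 160 with vehicle and at 135 and 171 with PM in WT cells, and at 169 and 159, then 174 and 171, in Acod1-/- cells. Its WT groups overlapped, and its log2 fold changes were -0.05 (95% interval -0.32 to 0.21) and 0.07 (95% interval -0.19 to 0.34). With the correction for gene length all 3 chains were called lower after PM in WT cells, at -0.35 for C1qa, -0.50 for C1qb and -0.53 for C1qc (adjusted p between 0.0025 and 0.0039). In Acod1-/- cells the same correction called C1qb lower, at -0.37 (adjusted p = 0.0118), as did a fit of the compared groups alone, at -0.14 (adjusted p = 0.0277). The latter fit called 5658 of all 11228 genes, in place of 2684. In WT cells C1qb was also called lower with no filter (adjusted p = 0.0300), with scaling by total counts (adjusted p = 0.0309) and without PM replicate 2 (-0.38, adjusted p = 0.00528), and it was at -0.05 without PM replicate 1.

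**Figure D2:**
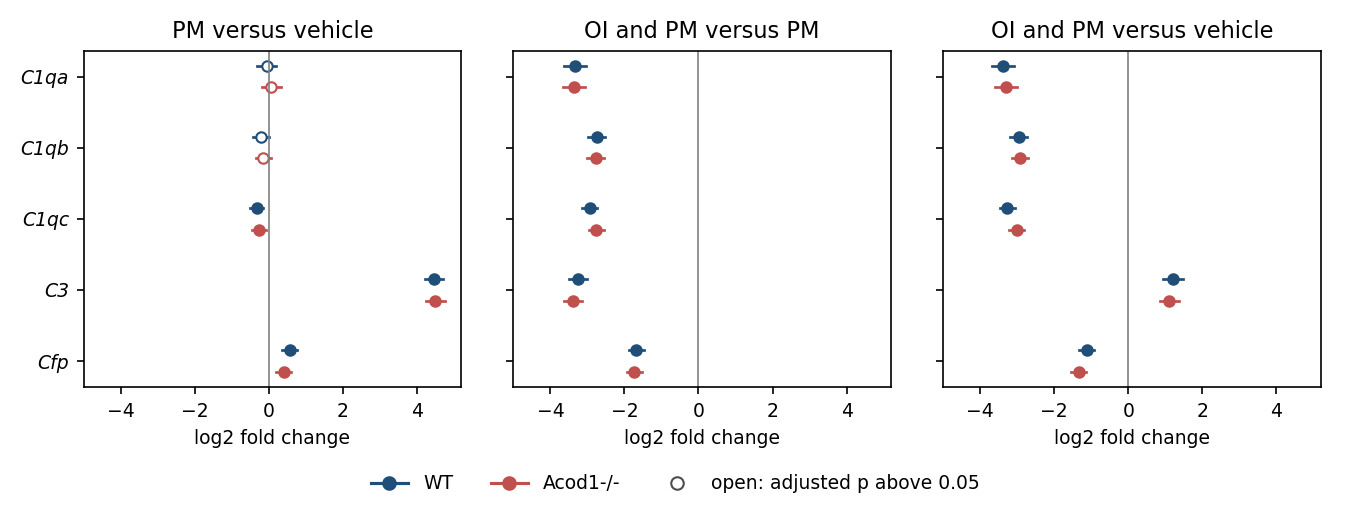
Log2 fold change and 95% interval of the 5 tested complement component genes in WT (blue) and Acod1-/- (red) cells for PM versus vehicle, OI and PM versus PM, and OI and PM versus vehicle, with open points where the adjusted p was above 0.05. In the middle panel all 10 points lie between -3.39 and -1.68, while in the left panel only C3 lies far from 0.

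OI pretreatment was compared with PM alone to show what OI changed in cells given PM. This comparison shares its PM libraries with the one above. With no group given OI alone, an effect of OI itself and a changed response to PM cannot be told apart. All 5 tested members fell more than 2-fold in both genotypes, from about 3-fold for Cfp to about 10-fold for C1qa and C3. Of all genes tested, 22.6% fell in WT cells and 20.6% in Acod1-/- cells, and 8.49% and 7.98% fell at least 2-fold. The median log2 fold change of the members was -2.94 in WT and -2.78 in Acod1-/- cells, beside 0.02 and -0.00056 for all genes. In bulk RNA such as this, fewer cells of a type and less RNA per cell cannot be told apart.

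C1qa, the A chain, was at 13.8 and 16.5 normalized CPM in the WT libraries given OI and PM, beside 135 and 171 with PM alone. The Acod1-/- libraries were at 15.4 and 18.0, beside 174 and 171. The level with OI was 9.92% of that with PM in WT cells and 9.68% in Acod1-/- cells. The log2 fold changes were -3.34 (SE 0.13, adjusted p = 3.48e-08) and -3.37 (SE 0.13, adjusted p = 3.25e-08).

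C1qb was at 111 and 115 normalized CPM in the WT libraries given OI and PM and at 106 and 108 in the Acod1-/- libraries. These levels were 14.8% and 14.6% of those with PM alone, log2 fold changes of -2.75 (SE 0.10, adjusted p = 1.73e-08) and -2.78 (SE 0.10, adjusted p = 1.69e-08). C1qc was at 67.3 and 59.9 in the WT libraries and at 74.4 and 78.1 in the Acod1-/- libraries, 13.1% and 14.8% of PM alone, with log2 fold changes of -2.94 (SE 0.09, adjusted p = 6.48e-09) and -2.76 (SE 0.09, adjusted p = 9.12e-09). For each of the 3 chains the 4 libraries with OI lay far below the 8 libraries without it.

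C3 was at 8.12 and 8.29 normalized CPM in the WT libraries given OI and PM and at 9.50 and 8.81 in the Acod1-/- libraries. It fell to 10.5% and 9.53% of its level with PM alone, with log2 fold changes of -3.26 (SE 0.10, adjusted p = 9.30e-09) and -3.39 (SE 0.10, adjusted p = 7.55e-09). Cfp was at 116 and 131 in the WT libraries and at 124 and 126 in the Acod1-/- libraries, 31.1% and 30.0% of PM alone, with log2 fold changes of -1.68 (SE 0.09, adjusted p = 2.84e-07) and -1.73 (SE 0.09, adjusted p = 2.38e-07). Libraries with OI and PM lay below those with PM alone for both genes, without overlap. Cfb, untested, held 16 counts with PM and 3 with OI and PM in WT cells, a ratio of 4.82 (exact 95% interval 1.38 to 25.8), and 21 and 4 in Acod1-/- cells, a ratio of 5.02 (1.69 to 20.1). With a filter of 10 counts in total this fall was not called (adjusted p = 0.114 and 0.0876), and with no filter it was called in Acod1-/- cells alone (adjusted p = 0.0830 and 0.0469).

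Ranked from the largest decrease among the 11228 genes, the WT changes stood at place 185 for C1qa, 241 for C1qc, 266 for C1qb and 524 for Cfp, with C3 between C1qa and C1qc. The Acod1-/- changes stood between place 170 for C3 and 470 for Cfp. Over all alternatives of processing, the 5 members were called lower in both genotypes, with log2 fold changes between -3.51 and -1.54. Of the 8 macrophage markers, 6 also fell in each genotype, with a median log2 fold change over the 8 of -0.69 in WT and -0.74 in Acod1-/- cells. Fcgr1 fell most (log2 fold changes -1.93 and -2.14), more than Cfp. The summed level of the 8 with OI and PM, between 14428 and 16637, was near that with vehicle. Another of the 8, Cd68, rose in WT cells (0.21, adjusted p = 0.0451). Of 5 B cell genes only Cd79b was tested, and it fell with OI in both genotypes (log2 fold change -1.599, adjusted p = 0.00101, and -1.487, adjusted p = 0.00205). The B cell list summed to between 2.51 and 4.04 normalized CPM with vehicle or PM and between 0.862 and 1.202 with OI and PM. The log2 fold changes of S100a8 were 1.82 and 1.33, and those of S100a9 were -1.93 and -1.66. The part of these marker shifts in the changes of the complement component genes was not tested.

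**Figure D3:**
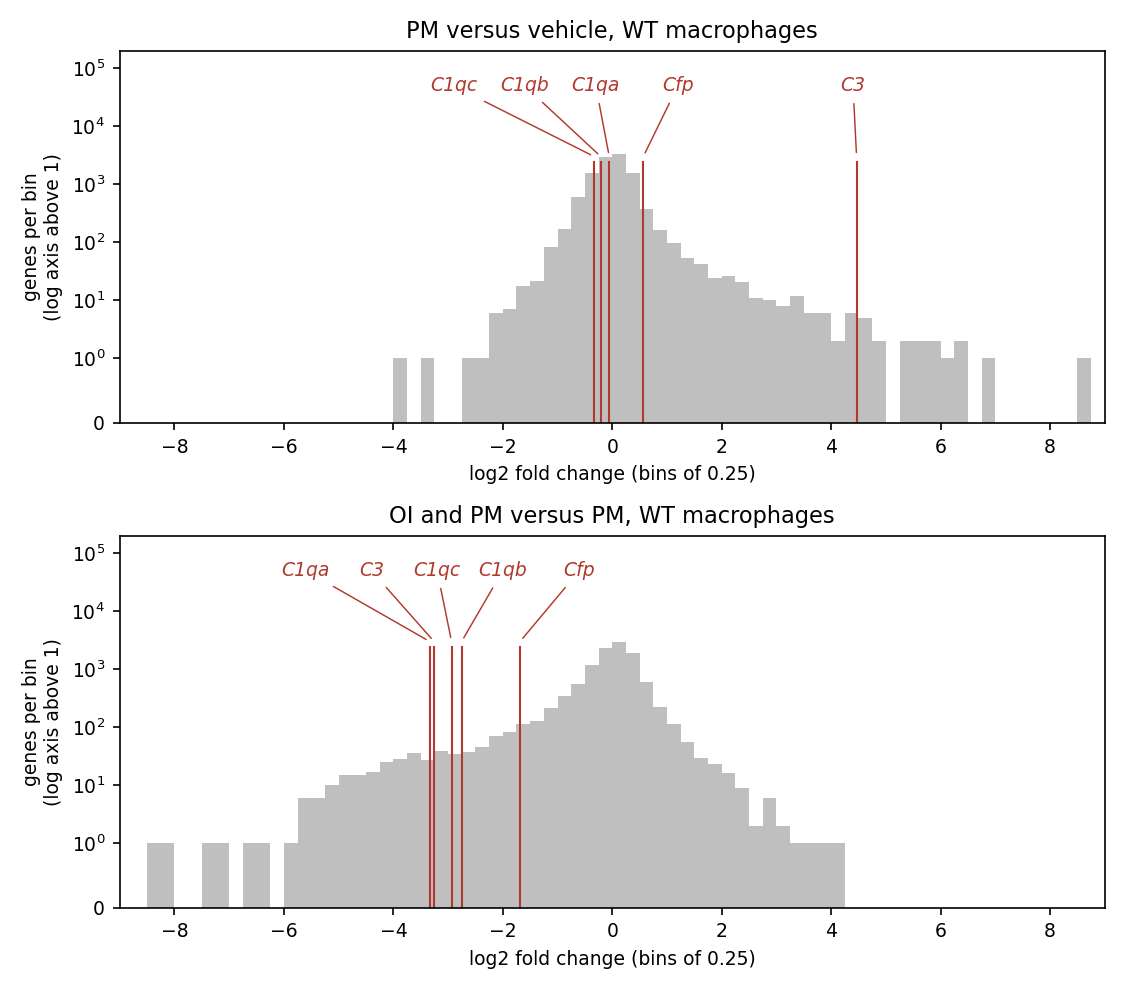
Number of genes (log axis above 1) per bin of log2 fold change for PM versus vehicle and for OI and PM versus PM in WT cells, over the 11228 genes tested, with red lines at the 5 tested complement component genes. After PM only C3, at 4.46, stands in the tail, and with OI all 5 members stand in the left tail between -3.34 and -1.68.

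OI and PM were then compared with vehicle, which shares libraries with both comparisons above and is given for the levels. The C1q chains and Cfp ended below their vehicle level, and C3 ended above it. All 5 were called in each genotype, 4 of them lower and 1 higher, beside 65.5% of all genes called in WT cells and 49.4% in Acod1-/- cells. C1qa reached 9.55% of vehicle in WT and 10.2% in Acod1-/- cells, C1qb 12.9% and 13.2%, C1qc 10.4% and 12.4%, and Cfp 46.1% and 39.7%. The log2 fold changes of the chains lay between -3.39 and -2.92, and those of Cfp were -1.12 (SE 0.09, adjusted p = 3.80e-06) and -1.33 (SE 0.09, adjusted p = 1.12e-06). C3 was still 2.31-fold and 2.16-fold above vehicle (log2 fold changes 1.21, SE 0.12, adjusted p = 1.50e-05, and 1.11, SE 0.11, adjusted p = 2.47e-05). Scaling by total counts lowered the median of all genes here from 0.02 to -0.20 in WT cells, and C3 was then at 0.99 and still called. Cfb was not called against vehicle with a filter of 10 counts in total (adjusted p = 0.160 in WT and 0.369 in Acod1-/- cells). Of the 8 macrophage markers, 3 rose and 3 fell in WT cells, and 2 rose and 4 fell in Acod1-/- cells, Fcgr1 most (log2 fold changes -1.58 and -1.90). S100a8 rose (3.46 and 3.12), S100a9 fell in WT cells alone (-1.18) and Cd79b fell in both genotypes (-1.56 and -1.32). The part of these marker shifts in the changes of the members was not tested.

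The ratio of C1qb to C1qa was higher with OI. Per kilobase of exon, C1qb was 4.77 and 4.73 times C1qa in the WT libraries given PM and 7.65 and 6.64 times in those given OI and PM. The Acod1-/- ratio was 4.18 and 3.95 with PM and 6.59 and 5.73 with OI and PM. With vehicle the ratio was higher than with PM, at 5.28 and 5.27 in WT and 4.63 and 4.87 in Acod1-/- libraries. In both genotypes the OI libraries were above all others, without overlap. The ratio of C1qb to C1qc showed no such shift in Acod1-/- cells, at 2.64 and 2.41 with PM and 2.54 and 2.45 with OI and PM, and in WT cells it was at 2.66 and 2.86 with PM and at 2.92 or more with OI and PM. Per kilobase the chains together held between 979 and 1282 normalized CPM in the 8 libraries without OI and between 150 and 157 in the 4 with it. No test was made of these ratios.

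Acod1-/- and WT cells were compared under each treatment to show what loss of the gene changed. No tested member passed the test in any of the 3 comparisons. Of all genes, 1.83% were called with vehicle, 2.40% with PM and 6.96% with OI and PM. With vehicle the differences, Acod1-/- minus WT on the log2 scale, ran from -0.11 for C1qb (95% interval -0.31 to 0.10) to 0.25 for C3 (95% interval -0.02 to 0.53), with Cfp at 0.23 (95% interval 0.03 to 0.43, adjusted p = 0.375). With PM they ran from -0.05 for C1qb to 0.29 for C3 (95% interval 0.09 to 0.49, adjusted p = 0.153), and C1qa was at 0.17 (95% interval -0.09 to 0.44). With OI and PM they ran from -0.07 for C1qb to 0.26 for C1qc (95% interval 0.07 to 0.45, adjusted p = 0.0886). The highest difference that any of these intervals allows is 0.53, for C3 with vehicle, which was at 4.46 and 4.00 normalized CPM in Acod1-/- and at 3.55 and 3.54 in WT cells.

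C3 was higher in both Acod1-/- libraries than in both WT libraries under each treatment, though none of these differences passed the test. The genotypes also did not overlap for C1qb and Cfp with vehicle, or for C1qb and C1qc with OI and PM, where C1qb was the lower in Acod1-/- cells. The share of all genes that separate in this way was not counted. With PM, C3 was called higher in Acod1-/- cells under the length correction with the replicate block (0.29, adjusted p = 0.0335). With vehicle, the fit of the compared groups alone called C1qb lower (-0.12, adjusted p = 0.0053) and Cfp higher (0.22, adjusted p = 3.44e-06) in Acod1-/- cells. That fit called 2316 of all 11228 genes, where the fit of all 12 libraries called 205. Cfb, with a filter of 10 counts in total, was not called under any treatment (adjusted p between 0.867 and 0.929, SE between 0.64 and 2.21). C1qc with OI and PM was called higher in Acod1-/- cells without WT replicate 1 (0.35, adjusted p = 0.0104), and with the correction for length C1qc (0.40, adjusted p = 0.0388) and C1qa (0.36, adjusted p = 0.0171) were called. Those WT replicates were the pair that differed most with gene length.

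The effect of PM and the effect of OI were tested for a difference between genotypes by interaction terms. No member was called, and in edgeR neither was any of the 11228 genes, with 273 genes (PM) and 717 genes (OI) at an unadjusted p under 0.05, while DESeq2 called 3 and 34. The count for OI depended on 1 library, with 525 genes called without the WT OI and PM replicate 1, and it was 58 with no filter and 21 with the correction for gene length. For the PM effect the interaction of the members lay between -0.16 for Cfp (95% interval -0.44 to 0.12) and 0.13 for C1qa (95% interval -0.24 to 0.50). For the OI effect it lay between -0.13 for C3 (95% interval -0.45 to 0.18) and 0.18 for C1qc (95% interval -0.09 to 0.44). Beside OI effects on the chains and C3 estimated at between -3.39 and -2.75 on the log2 scale, the interval of the difference between genotypes stayed within 0.45 for each of the 5 tested members. For Cfb, with a filter of 10 counts in total, the interactions were -1.86 (SE 2.04) for PM and -0.06 (SE 2.09) for OI, too wide to compare the genotypes.

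Ordered by mean level over the 6 groups, the C1q chains fell into the 4 groups without OI and, far below, the 2 groups with it. The step between them was 3.19 for C1qa, 2.70 for C1qb and 2.68 for C1qc on the log2 scale (adjusted p = 4.21e-08, 1.88e-08 and 9.88e-09). Within the upper 4 groups no neighbours in the order were called different (lowest adjusted p = 0.0568, C1qc in WT vehicle and Acod1-/- PM libraries), nor were the lower 2. C1qc was called lower with PM than with vehicle in each genotype, as given above, but those groups are not neighbours in its order. C3 had 3 tiers, PM above OI and PM above vehicle, with steps of 3.10 and 0.96 (adjusted p = 1.02e-08 and 6.46e-05) and no called difference between genotypes within a tier. Cfp also had 3 tiers, PM above vehicle above OI and PM, with steps of 0.34 and 1.10 (adjusted p = 0.0170 and 4.64e-06).

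Across the 12 libraries the log2 levels of the 3 chains followed each other closely (Pearson's r between 0.994 and 0.996). Cfp followed them at between 0.927 and 0.958, and C3 did not, at between 0.187 and 0.270. These values are descriptions, because the 12 points are 6 groups of 2 and the split by OI sets most of their spread. The 3 genes most like each member were sought among 9572 tested genes with a mean of at least 5 normalized CPM, other members left out. For C1qa they were Gins2, Pclaf and Prim2 (r between 0.994 and 0.996), while C1qb followed C1qa at 0.9954, above Pclaf and Prim2. They were Rad51ap1, Asf1b and Esco2 for C1qb (0.998 each) and Fignl1, Zwilch and Fanci for C1qc (0.997 each). Gins2, Pclaf and Prim2 encode parts of the DNA replication machinery, Rad51ap1 and Fanci act in DNA repair, Asf1b is a histone chaperone, Esco2 acts in sister chromatid cohesion and Zwilch at the kinetochore. C3 was followed most closely by Ccl5, a chemokine, Fpr2, a receptor for formyl peptides, and Cdc42ep2 (0.988 to 0.992). Cfp was followed by Glrx, a glutaredoxin, Dhx58, an RNA sensor, and Aif1 (0.993 to 0.994).

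The wider pathway was described by a list of 50 other complement genes, of which 13 were tested. The other 37 were below the filter, among them C2, C4a and C4b, factor D, the terminal components Hc to C9 and the inhibitors Serping1 and Cfi. With PM, 4 of the 13 rose and 2 fell in WT cells, and 3 rose and 2 fell in Acod1-/- cells (medians 0.04 and -0.07), where 24.8% and 23.9% of all genes were called. With OI against PM, 1 rose and 8 fell in WT cells, and 1 rose and 6 fell in Acod1-/- cells (medians -0.45 and -0.27), where 22.6% and 20.6% of all genes fell. Without WT PM replicate 2 or either WT vehicle library the PM calls in WT cells went from 6 to 3. In Acod1-/- cells they fell without PM replicate 2 or vehicle replicate 2, and went from 5 to 8 in the compared groups alone. The compared groups alone also called 5658 of all 11228 genes there, in place of 2684. With no filter 40 genes of the list were tested among 24979 genes, and in Acod1-/- cells 8 were called with PM and 11 with OI against PM. The shares of all genes given above are for the 11228 genes and do not apply to that fit.

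C1ra, a protease that C1q activates, was the only one of the 13 to change 2-fold with PM. It was at 1.68 and 1.88 normalized CPM with vehicle, 3.74 and 4.35 with PM and 1.26 and 1.45 with OI and PM in WT cells, and at 1.28 and 1.53, then 4.20 and 4.05, then 1.02 and 1.17 in Acod1-/- cells. Its log2 fold change with PM was 1.18 (SE 0.14, adjusted p = 0.000280) in WT and 1.55 (SE 0.15, adjusted p = 5.16e-05) in Acod1-/- cells, and with OI it was -1.58 and -1.91 (adjusted p = 2.35e-05 and 7.41e-06). PM libraries lay above all others. C1s1, its partner protease and named after its values were seen, was below the filter, with 1 and 0 counts in the WT vehicle libraries, 12 and 17 with PM and 3 and 2 with OI and PM, and with 4 and 2, then 28 and 27, then 4 and 8 in Acod1-/- cells. Exons of C1s1 overlap those of Gm16567 on the other strand.

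Among the receptors, C3ar1, which binds the C3a fragment, was at 1465 normalized CPM with vehicle, 1204 with PM and 553 with OI and PM in WT cells (SD of 2 libraries 3.54, 35.2 and 39.1). It fell with PM (log2 fold change -0.28, adjusted p = 0.0198, and -0.33, adjusted p = 0.00851, in Acod1-/- cells) and fell further with OI (-1.12 and -0.96, adjusted p = 1.11e-06 and 3.51e-06). The PM call was lost in WT cells without PM replicate 2 or either vehicle library (adjusted p between 0.0987 and 0.120) and in Acod1-/- cells without PM replicate 2 or vehicle replicate 2 (adjusted p = 0.0729 and 0.0835). C5ar1, the C5a receptor, did not pass the test with PM but fell with OI by 0.70 on the log2 scale in each genotype. C5ar2, a further C5a receptor, fell with PM by 0.48 and 0.50, and with OI it fell by 0.70 in WT cells and was at -0.31 without a call in Acod1-/- cells. The PM call of C5ar2 was lost in WT cells without PM replicate 2 or either vehicle library (adjusted p between 0.125 and 0.229) and in Acod1-/- cells without any 1 of the 4 libraries (adjusted p between 0.111 and 0.144), and in the compared groups alone its OI call was lost in WT cells (adjusted p = 0.0772) and gained in Acod1-/- cells (adjusted p = 0.0266). Its exons overlap those of Gm26473 on the same strand.

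Itgb2, the shared beta subunit of the iC3b receptors, rose with PM by 0.40 and 0.38 and again with OI by 0.45 and 0.43, and was the only tested complement gene to rise with OI. Itgam, an alpha subunit, rose with PM by 0.40 and 0.36 and was not called with OI, though 4 of 13 alternatives called it lower in WT cells. It shares most of its exonic bases with Gm49368 and is therefore uncertain. Itgax was not called with PM, and its fall with OI by 0.27 in Acod1-/- cells was lost without any 1 of the 4 libraries (adjusted p between 0.0635 and 0.246). C1qbp rose with PM in WT cells (0.36, adjusted p = 0.0358), a call lost without PM replicate 2 or either vehicle library (adjusted p between 0.111 and 0.229).

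Fcna, which encodes ficolin A, a starter of the lectin pathway, was not called with PM and fell with OI by 0.99 in WT and 1.18 in Acod1-/- cells. With the correction for gene length it was called lower after PM, at -0.45 and -0.40 (adjusted p = 0.00388 and 0.00864). Its exons overlap those of Fcnaos on the other strand. Of the inhibitors, Cd59a, which blocks the terminal complex, fell with OI by 0.89 and 0.92. Cr1l, which encodes the rodent C3 convertase inhibitor Crry, was not called with PM, or with OI against PM. It was called higher with OI and PM against vehicle in WT cells (0.23, adjusted p = 0.0184). That call held in 8 of 13 alternatives. It was lost with total count scaling (0.009, adjusted p = 0.907), with no filter (adjusted p = 0.0919) and in the compared groups alone (adjusted p = 0.137). It was also lost without WT OI and PM replicate 2 (0.16) or WT vehicle replicate 1 (0.19). In Acod1-/- cells 3 of 13 alternatives called Cr1l higher against vehicle. After PM it was called higher in both genotypes under the length correction with the replicate block (0.33 and 0.37, adjusted p = 0.0463 and 0.0289). Cr1l stayed between 71.6 and 91.0 normalized CPM over the 12 libraries.

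**Figure D4:**
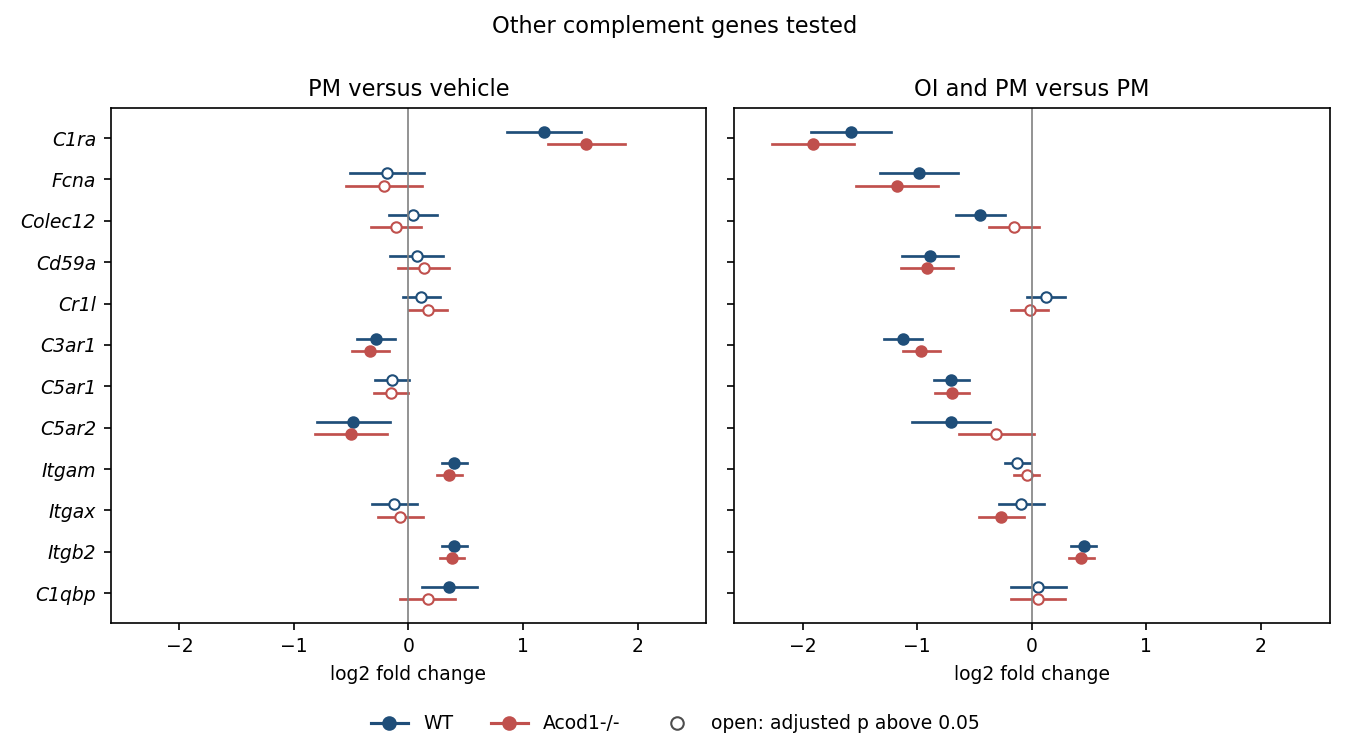
Log2 fold change and 95% interval of 12 of the 13 other complement genes tested, for PM versus vehicle and for OI and PM versus PM, in WT (blue) and Acod1-/- (red) cells, with open points where the adjusted p was above 0.05. C1ra stands at 1.18 and 1.55 with PM and at -1.58 and -1.91 with OI, and Itgb2 is right of 0 in both panels.

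Cd59a and Colec12, a scavenger receptor of the collectin family, were called different between genotypes under every treatment. Cd59a was at 12.8 and 13.0 normalized CPM in WT and 23.2 and 24.1 in Acod1-/- vehicle libraries, and the log2 difference, Acod1-/- minus WT, was 0.87 with vehicle, 0.93 with PM and 0.91 with OI and PM (adjusted p = 0.00215, 0.00142 and 0.00200). It has a paralog, Cd59b, with 84 counts over all libraries. Colec12 was at 39.3 and 37.4 in WT and 23.0 and 23.7 in Acod1-/- vehicle libraries, and its difference was -0.72, -0.86 and -0.57 (adjusted p = 0.00435, 0.00157 and 0.0117). The Colec12 call was lost with vehicle without WT replicate 1 or either Acod1-/- library (adjusted p between 0.0607 and 0.0794), and with OI and PM without either Acod1-/- library (adjusted p = 0.0909 and 0.105). In the compared groups alone the OI and PM calls of Colec12 and Cd59a were lost (adjusted p = 0.338 and 0.148). Itgb2 was at -0.19 with OI and PM (adjusted p = 0.0445), a call that held in 3 of 13 alternatives. Among the markers of cell types, Adgre1 was called higher in Acod1-/- cells with vehicle, PM, and OI and PM (0.45, 0.53 and 0.59, adjusted p = 0.0144, 0.0060 and 0.00275). S100a9 was called higher with PM (0.94, adjusted p = 0.0461) and Cd68 lower with OI and PM (-0.37, adjusted p = 0.0199). The part of these markers in the differences between genotypes was not tested. Genotype and mouse line cannot be told apart in these libraries, since every Acod1-/- library came from the 1 line.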

How the data were processed

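RNA of 12 BMDM libraries was sequenced as single-end reads of 50 bases. The authors mapped them to GRCm38 with STAR 2.5.3a, checked quality with FastQC 0.11.5 and Picard 2.9.0 and counted them with featureCounts, as the submitters' processing notes and the study's methods state. The annotation release and the handling of strand and of multiply mapped reads are not given in the sources used here. The deposited files hold raw gene counts. Of 48795 identifiers, 48435 were matched to a symbol, position and exonic length (GRCm38).

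Counts were scaled by TMM and fitted in edgeR 4.0.16 (R 4.3.3) by the quasi-likelihood method, with all 12 libraries and a mean for each of 6 groups. Benjamini-Hochberg adjustment was over the 11228 genes that passed 1.5 CPM in 2 or more libraries. The SE is that implied by the F statistic. The fit was tested on simulated counts with 200 changed genes. The study's own tool, DESeq2 1.42.0, served as an alternative, beside other scaling and filters, fits of the compared groups alone, a replicate block, a lowess correction for exonic length (span 0.3) and leaving out each library. With a library left out, the lone library of a group is assumed to vary like the others. Intervals of counts cover counting error only, and a ratio to a floor leaves out the counting error of the group above it.

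The 6 members were described in every comparison, by their range where none was called and by counts or a fit with a lower filter for Cfb. Other complement genes were named where they changed 2-fold with an adjusted p of 0.05 or less, or as receptors and inhibitors with a mean of at least 5 CPM. The 3 genes outside the members nearest each member were named by Pearson's r of log2 CPM (prior count 2). Members and lists were chosen with earlier results of these data known. Fcna in WT cells, Colec12 and C1s1 were named after their values were seen. 1 gene of the list is counted but not reported here.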

Additional observations from a re-analysis of the deposited data

How the results depend on the processing

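The falls of the 5 tested members with OI against PM and of the C1q chains and Cfp against vehicle, the rise of C3 with PM and its level above vehicle with OI and PM kept their direction and call in every alternative run. The number of members called for PM versus vehicle in WT cells went from 3 to 5 with the gene length correction, with that correction and the replicate block, and with no filter (where Cfb was also tested), to 4 with total count scaling (C1qb) and the filter of 10 counts (Cfb), and to between 2 and 4 with a library left out. In Acod1-/- cells it went from 3 to 4 with the length correction (with or without the block) and in the compared groups alone, where C1qb was added, and with no filter, and to between 1 and 2 with a library left out. For Acod1-/- versus WT it went from 0 to 2 with vehicle in the compared groups alone (C1qb and Cfp), to 1 with PM under the length correction with the replicate block (C3), and with OI and PM to 2 under the length correction with or without the replicate block, to 1 with no filter, and to between 0 and 1 with a library left out. The cause was not tested. Deviations of same-numbered libraries correlated at 0.23, 0.73 and 0.24 in the comparisons within WT cells, between -0.09 and -0.04 within Acod1-/- cells and between -0.41 and 0.25 across genotypes. No label ties them, and they were not treated as paired. The replicate block left the member counts of PM versus vehicle at 3 in WT cells and 2 in Acod1-/- cells, where C1qc was at an adjusted p of 0.0537.

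Over all genes, calls for Acod1-/- versus WT depended most on the fit. With vehicle they went from 205 to 2316 in the compared groups alone, 429 with no filter and 373 with the length correction, with PM from 269 to 174, 694 and 590, and with OI and PM from 782 to 2, 2339 and 1724, with 434 (PM) and 1321 (OI and PM) in DESeq2. With a library left out they were between 52 and 63 (vehicle), 74 and 153 (PM) and 95 and 5452 (OI and PM, the highest without WT replicate 1 and the next 404). For PM versus vehicle they went with a library left out from 2782 to between 1187 and 3447 in WT cells (at most 1390 without PM replicate 2 or either vehicle library), and from 2684 to between 1391 and 1707 in Acod1-/- cells. The compared groups alone also gave 5658 in place of 2684 (PM, Acod1-/-), 1939 in place of 4926 (OI, WT) and 8351 in place of 5547 (OI and PM versus vehicle, Acod1-/-). With 2 libraries per group, 1 library decides several of the small changes. Cfb rests on 45 counts.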
